A study of Mus musculus with 12 samples.

Results

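The miR-30 family was followed arm by arm in mouse skin and in skin tumours induced by ultraviolet radiation. A microRNA (miRNA) hairpin has 2 arms, and here the 5p arm of each miR-30 hairpin is called the guide arm and the 3p arm the star arm. Members were the miR-30 rows listed for the family, 10 of the 1251 rows of the table. The 5 guide arms are the rows mmu-mir-30a-5p, mmu-mir-30b-5p, mmu-mir-30c-5p, mmu-mir-30d-5p and mmu-mir-30e-5p. The 5 star arms are mmu-mir-30a-3p, mmu-mir-30c-1-3p, mmu-mir-30c-2-3p, mmu-mir-30d-3p and mmu-mir-30e-3p, and the prefix for mouse is left out below. All 10 were above the table's lower limit in all 12 libraries and passed the filter on low values. The family's remaining arm, miR-30b-3p, is not a member and is given once for completeness. All mice were of the C57Bl6 strain. The groups were cutaneous squamous cell carcinoma (SCC) of TAp63 knockout mice (KO SCC, n = 4) and of wild-type mice (WT SCC, n = 2), and dorsal skin of TAp63 knockout mice (KO skin, n = 3) and of wild-type mice (WT skin, n = 3). TAp63 is the p63 form with a transactivation domain, and p63 belongs to the p53 family of transcription factors. The tumours were taken past 35 weeks of age after chronic ultraviolet exposure (2.5 kJ/m2, given 3 times weekly), and the skin was taken at 4 weeks with no exposure. Age, radiation and tissue therefore change together between SCC and skin and cannot be told apart. The sample titles of SCC and of skin also carry different prefixes. The labels do not say whether the prefixes mark batches of libraries, and any such batch cannot be told apart from tissue in the SCC minus skin values. The table holds miRNAs alone, so the loss of TAp63 itself was not checked here.

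A miRNA directs an Argonaute protein to messenger RNAs that pair with its seed, the bases near its 5′ end, and the bound messages are repressed. Each hairpin is cut into a short duplex. The arm that Argonaute keeps, the guide, accumulates, while the star arm is mostly degraded, so the ratio of the arms depends on strand choice and on the stability of each arm. The miR-30 guides share 1 seed and are known as repressors of Snai1, which drives epithelial-mesenchymal transition, and of the autophagy gene Becn1. The star arms carry other seeds. miR-30c-2-3p, also written miR-30c-2*, is 1 of the miRNAs that the study itself chose from these mice as regulated by TAp63, so its behaviour here is not independent evidence.

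The mature sequences are shown because they define which arms are near-copies of each other. They are the RefSeq entries on GRCm38.p6, which matched 7 of the 10 members, written 5′ to 3′ with the seed (bases 2 to 8) in capitals. Unmatched were miR-30b-5p, miR-30d-5p and miR-30d-3p, and the seed counts below leave them out. The guide arms come first.
miR-30a-5p: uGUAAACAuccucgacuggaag
miR-30e-5p: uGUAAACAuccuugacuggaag
miR-30c-5p: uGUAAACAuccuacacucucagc
The star arms follow.
miR-30a-3p: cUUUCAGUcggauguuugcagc
miR-30e-3p: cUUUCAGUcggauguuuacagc
miR-30c-2-3p: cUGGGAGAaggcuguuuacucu
miR-30c-1-3p: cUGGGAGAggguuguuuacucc
The 3 guide arms shown share the seed GUAAACA, which 4 of the 1001 table rows with a RefSeq sequence hold (0.4%). The 1 holder outside the family was miR-384-5p, above the lower limit in 2 libraries. miR-30a-3p and miR-30e-3p share the seed UUUCAGU, and miR-30c-1-3p and miR-30c-2-3p share UGGGAGA, and no other row with a sequence holds either seed. Counting positions from 1 at the 5′ end, miR-30a-5p and miR-30e-5p differ by the single substitution C13U, and miR-30a-3p and miR-30e-3p by G18A (miR-30a base first). miR-30c-1-3p and miR-30c-2-3p differ by G9A, U12C and C22U (miR-30c-1-3p base first). How reads that fit both copies of a pair were assigned is not given in the sources used here, so the split within each pair is uncertain.

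The hairpins lie in pairs. On GRCm38.p6, Mir30a is at chr1:23272269-23272339 (plus strand) and Mir30c-2 at chr1:23291701-23291784 (plus strand), with 19361 bases between them, and the GENCODE annotation places Mir30c-2 in an exon of the long noncoding RNA Gm27028. Mir30c-1 is at chr4:120769534-120769622 and Mir30e at chr4:120772606-120772697, both on the minus strand with 2983 bases between them. Both lie in an intron of Nfyc, which encodes a subunit of the transcription factor NF-Y. None of the 4 hairpins overlaps an annotated untranslated region. The 4 hairpins are shown with the arms in capitals, to place guide and star on the same molecule.
Mir30a: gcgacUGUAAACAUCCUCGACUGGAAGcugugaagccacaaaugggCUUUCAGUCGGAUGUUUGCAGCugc
Mir30e: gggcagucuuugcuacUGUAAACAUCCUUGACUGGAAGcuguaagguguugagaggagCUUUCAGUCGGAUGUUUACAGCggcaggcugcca
Mir30c-2: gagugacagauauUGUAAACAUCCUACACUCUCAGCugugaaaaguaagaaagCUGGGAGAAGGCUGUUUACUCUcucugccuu
Mir30c-1: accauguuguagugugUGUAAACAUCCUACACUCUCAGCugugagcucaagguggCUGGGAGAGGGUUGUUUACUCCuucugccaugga
Mir30c-1 and Mir30c-2 give the same 5p sequence, so miR-30c-5p is 1 row that serves as the guide of both hairpins.

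Values are the authors' log2 levels, which were normalized so that libraries share nearly the same set of values. A level therefore follows a miRNA's rank within its library closely, though equal ranks in different libraries can hold slightly different values. The lower limit is a linear value of 10. Read depth is unknown, and the nearest measure is the number of miRNAs above the limit, which was 432 to 545 in KO SCC, 402 to 420 in WT SCC, 370 to 465 in KO skin and 390 to 433 in WT skin. SCC and skin separated on the first principal component, on which WT SCC replicate 2 lay nearest to skin (8.60, against 14.03 to 18.81 for the other SCC and -19.82 to -12.34 for skin). Differences were tested with limma over the 544 miRNAs above the limit in at least 2 libraries, and a difference was called where the Benjamini-Hochberg adjusted p over these 544 was under 0.05. In bulk tissue, fewer cells of a type and less RNA per cell cannot be told apart.

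Each guide arm stood far above the star arm of its own hairpin in every library. The mean log2 level in skin (n = 6) fell in the order miR-30a-5p (17.47 ± 0.22 SD), miR-30d-5p (15.65 ± 0.15), miR-30e-5p (14.50 ± 0.25), miR-30c-5p (13.53 ± 0.04) and miR-30b-5p (12.68 ± 0.08). In SCC (n = 6), miR-30a-5p was again first (16.20 ± 0.37), and miR-30d-5p (15.36 ± 0.31) and miR-30e-5p (15.30 ± 0.18) lay within their spread of each other. miR-30c-5p (13.82 ± 0.27) and miR-30b-5p (13.01 ± 0.38) followed. Among the star arms of SCC, miR-30e-3p (9.70 ± 0.36) and miR-30a-3p (9.69 ± 0.50) lay together above miR-30d-3p (8.20 ± 0.45), with miR-30c-2-3p (6.93 ± 0.34) and miR-30c-1-3p (6.39 ± 0.51) lowest. In skin the order was miR-30a-3p (11.67 ± 0.37), miR-30e-3p (10.53 ± 0.27), miR-30d-3p (8.81 ± 0.19), miR-30c-2-3p (7.93 ± 0.80) and miR-30c-1-3p (7.34 ± 0.39), and the last 2 lay within their spread. By rank, miR-30a-5p was between 13 and 23 in SCC and between 7 and 10 in skin among all miRNAs of a library, and miR-30c-1-3p was between 258 and 328 in SCC and between 210 and 260 in skin.

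**Figure D1:**
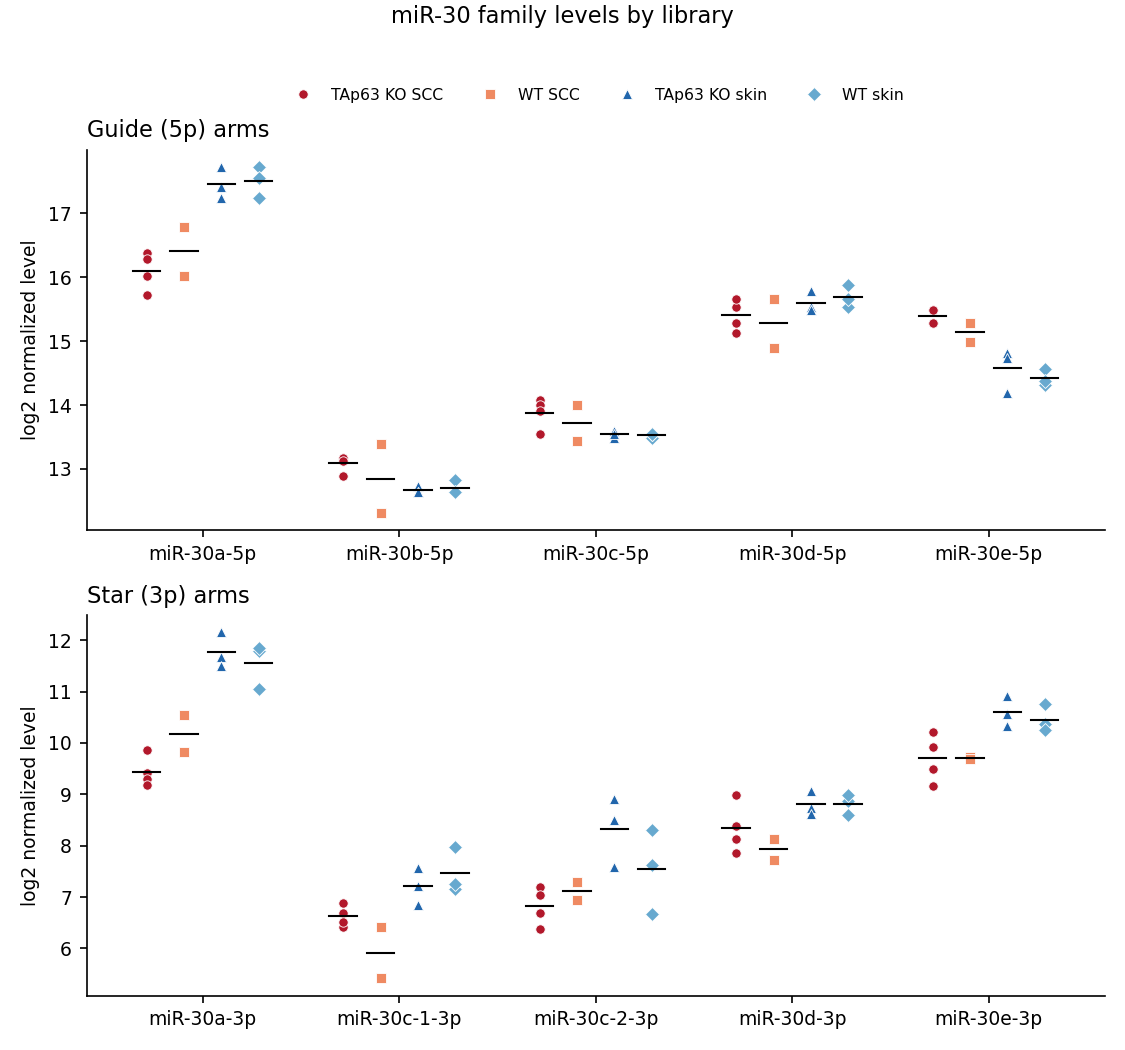
Log2 normalized level (vertical axis) of the 5 guide arms (upper panel) and the 5 star arms (lower panel) in each of the 12 libraries, as points by group with a bar at the group mean. The SCC points of miR-30a-5p, miR-30a-3p and miR-30e-3p lie below all skin points, and those of miR-30e-5p lie above them.

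The guide arms moved in both directions between SCC and skin. miR-30a-5p had log2 levels of 16.37, 16.29, 15.72 and 16.02 in KO SCC and 16.02 and 16.78 in WT SCC, against 17.72, 17.23 and 17.40 in KO skin and 17.72, 17.54 and 17.23 in WT skin. Every SCC library was below every skin library. Averaged over the genotypes, miR-30a-5p fell by 1.22 ± 0.19 (SE) on the log2 scale, which is 2.34-fold (limma, adjusted p = 0.000521). miR-30e-5p, its copy but for 1 base, had log2 levels of 15.49, 15.28, 15.49 and 15.28 in KO SCC and 14.99 and 15.28 in WT SCC, against 14.19, 14.82 and 14.74 in KO skin and 14.32, 14.57 and 14.37 in WT skin. Here every SCC library was above every skin library. miR-30e-5p rose by 0.76 ± 0.16 (SE), a 1.69-fold increase (adjusted p = 0.00296).

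The other 3 guide arms were not called. The averaged difference between SCC and skin was 0.29 for miR-30b-5p (95% interval -0.14 to 0.71, adjusted p = 0.268) and 0.26 for miR-30c-5p (-0.09 to 0.62, adjusted p = 0.218). For miR-30d-5p it was -0.31 (-0.70 to 0.08, adjusted p = 0.195). Single libraries decide 2 of these: without WT SCC replicate 1 the difference of miR-30b-5p was 0.55 (adjusted p = 0.0221), and without WT SCC replicate 2 that of miR-30d-5p was -0.50 (adjusted p = 0.0434). Of the 5 guide arms, 1 was thus called higher and 1 lower, where 20.4% of all tested miRNAs were called higher and 21.5% lower. Non-overlap of all SCC with all skin libraries was found for 10.5% of tested miRNAs above skin and for 11.6% below it.

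All 5 star arms were lower in SCC than in skin, against the 21.5% of tested miRNAs called lower. miR-30a-3p had log2 levels of 9.41, 9.31, 9.19 and 9.87 in KO SCC and 9.82 and 10.54 in WT SCC, against 12.15, 11.67 and 11.50 in KO skin and 11.78, 11.05 and 11.85 in WT skin. The groups did not overlap, and WT SCC replicate 2 was the highest tumour. miR-30a-3p fell by 1.86 ± 0.23 (SE), which is 3.62-fold (adjusted p = 0.000113). miR-30e-3p had 9.50, 9.16, 9.92 and 10.22 in KO SCC and 9.73 and 9.69 in WT SCC, against 10.92, 10.57 and 10.33 in KO skin and 10.36, 10.24 and 10.75 in WT skin. The gap between the highest tumour and the lowest skin library was small, but no tumour reached skin. The fall of miR-30e-3p was 0.82 ± 0.22 (SE, adjusted p = 0.0125), opposite in sign to the change of its own guide.

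The star arms of the miR-30c hairpins were the least abundant members. miR-30c-1-3p had log2 levels of 6.68, 6.42, 6.52 and 6.88 in KO SCC and 5.42 and 6.41 in WT SCC, against 7.56, 7.22 and 6.85 in KO skin and 7.15, 7.26 and 7.97 in WT skin. KO SCC replicate 4 lay just above the lowest skin library, and WT SCC replicate 1 was the lowest of all. miR-30c-1-3p fell by 1.06 ± 0.26 (SE, adjusted p = 0.00742). miR-30c-2-3p had 7.20, 6.68, 6.38 and 7.04 in KO SCC and 6.95 and 7.30 in WT SCC, against 8.90, 8.50 and 7.59 in KO skin and 7.63, 6.67 and 8.31 in WT skin. WT skin replicate 2 lay among the tumours. Its averaged fall was 0.96 ± 0.33 (SE, adjusted p = 0.0387), and the call ended under median-ratio scaling (adjusted p = 0.0597) and without any 1 of 8 libraries. These were either WT SCC library, WT skin replicate 1 or 3, KO skin replicate 1 or 2, and KO SCC replicate 2 or 3 (adjusted p 0.0557 to 0.128).

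miR-30d-3p overlapped between the tissues through 1 tumour. Its log2 levels were 8.13, 8.38, 7.86 and 8.99 in KO SCC and 7.73 and 8.13 in WT SCC, against 9.06, 8.74 and 8.62 in KO skin and 8.59, 8.86 and 8.99 in WT skin. KO SCC replicate 4 matched the upper skin libraries, and the other 5 tumours were below all skin. The fall was 0.67 ± 0.23 (SE, adjusted p = 0.0355), and the call ended under median-ratio scaling (adjusted p = 0.0562) and without any 1 of 6 libraries, which were WT SCC replicate 1, WT skin replicate 2 or 3, KO skin replicate 1 or 2, and KO SCC replicate 1 (0.0540 to 0.131). The median difference was -0.96 over the 5 star arms and 0.26 over the 5 guide arms, beside 0.04 over all 544 tested miRNAs.

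Within KO mice, 4 members were lower in SCC and 1 was higher, where 18.2% of tested miRNAs were called lower and 16% higher. The lower ones were miR-30a-3p (-2.33 ± 0.30 SE, adjusted p = 0.000272), miR-30c-2-3p (-1.51 ± 0.43, 0.0185), miR-30a-5p (-1.35 ± 0.25, 0.00204) and miR-30e-3p (-0.91 ± 0.29, 0.0324). The higher one was miR-30e-5p (0.80 ± 0.20, adjusted p = 0.0108). The call of miR-30e-5p ended without KO skin replicate 1 (adjusted p = 0.0534), and that of miR-30c-2-3p without KO skin replicate 1 or 2 (0.0897 and 0.0630). That of miR-30e-3p ended when KO libraries were fitted alone (0.0748) and without KO skin replicate 1 or 2 or KO SCC replicate 1 or 2 (0.0605 to 0.122). miR-30c-1-3p (-0.58 ± 0.34) and miR-30d-3p (-0.47 ± 0.30) were not called. Within WT mice, with 2 tumours, 3 members were lower and none was higher, where 9.38% of tested miRNAs were called lower and 8.82% higher. They were miR-30c-1-3p (-1.55 ± 0.40, adjusted p = 0.0213), miR-30a-3p (-1.38 ± 0.36, 0.0213) and miR-30a-5p (-1.10 ± 0.30, 0.0249), and all 3 calls ended when WT libraries were fitted alone (0.125 to 0.130) and without WT SCC replicate 1 (0.226 to 0.258). They also ended without WT skin replicate 3 for miR-30c-1-3p, replicate 1 or 3 for miR-30a-3p, and replicate 1 or 2 for miR-30a-5p (0.070 to 0.0852). miR-30e-5p was 0.72 ± 0.24 in WT mice (adjusted p = 0.0645). It passed the threshold under median-ratio scaling (0.0338), with miRNAs above the limit in only 1 library kept in the test (0.0452) and without KO skin replicate 1 (0.0450). miR-30c-2-3p was -0.41 ± 0.51 in WT mice (adjusted p = 0.651).

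**Figure D2:**
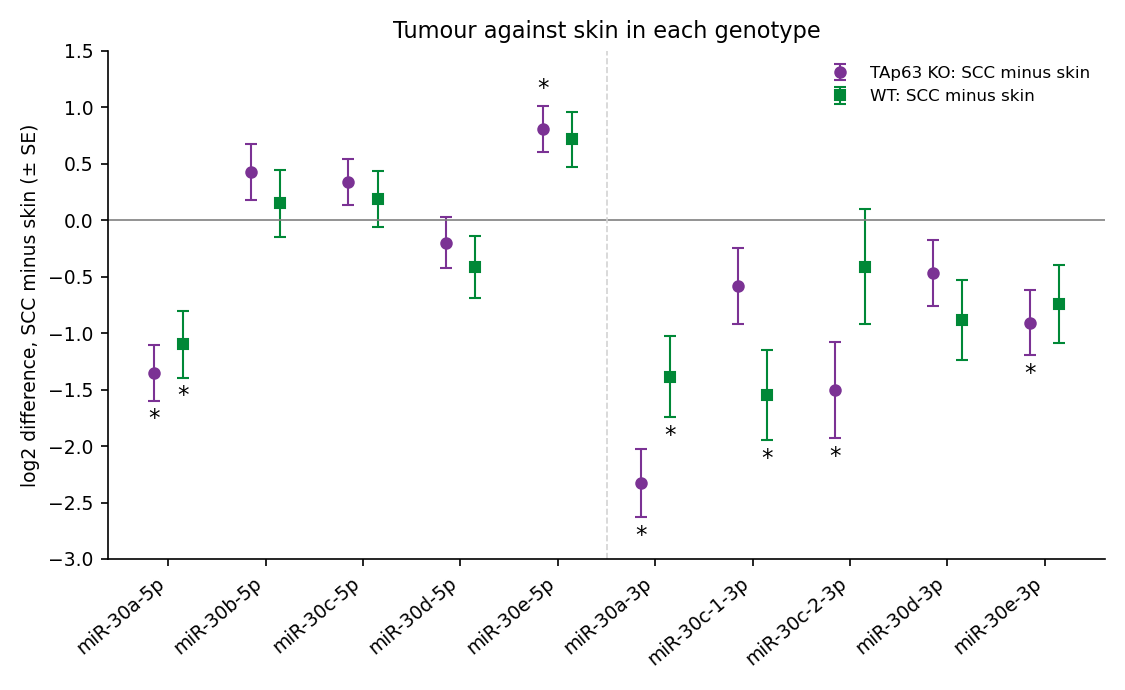
Log2 difference of SCC minus skin (vertical axis, points, with SE bars) for each member in TAp63 knockout and in WT mice, with an asterisk where the limma adjusted p is under 0.05. All 5 star arms lie below 0 in both genotypes, and the guide arms lie on both sides.

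The star arm was then set against its guide within each library, which cancels an equal log2 shift of both arms. Because the normalized values follow rank, a fold change common to both arms need not give equal log2 shifts. For miR-30e the star arm amounted to 1.57%, 1.43%, 2.11% and 3.00% of the guide's linear level in KO SCC and 2.62% and 2.07% in WT SCC, against 10.4%, 5.27% and 4.70% in KO skin and 6.46%, 5.0% and 8.14% in WT skin. No tumour reached any skin library, a separation that 11.9% of the 177 hairpins with both arms tested showed. The log2 difference of star minus guide fell by 1.58 ± 0.26 (SE) in SCC, which is 3.00-fold (limma over these hairpins, adjusted p = 8.7e-05). For miR-30c-1 the share was 0.387% to 0.766% in SCC and 0.962% to 2.10% in skin, again without overlap, and the log2 difference fell by 1.33 ± 0.27 (SE, adjusted p = 0.000456). For miR-30c-2 it was 0.511% to 1.12% in SCC and 0.850% to 4.17% in skin, and the log2 difference fell by 1.22 ± 0.32 (SE, adjusted p = 0.00334). These 2 values share the guide miR-30c-5p and are not independent.

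For miR-30a, where both arms were lower, the star arm was 0.792% to 1.41% of the guide in SCC and 1.11% to 2.40% in skin. The log2 difference fell by 0.63 ± 0.24 (SE, adjusted p = 0.0385). This call ended under limma without the variance trend and without robust variances (0.0750), and without any 1 of 8 libraries. These were KO SCC replicate 1 or 2, either WT SCC library, KO skin replicate 1 or 2, and WT skin replicate 1 or 3 (0.0601 to 0.0902). For miR-30d the change was -0.37 (95% interval -0.89 to 0.16, adjusted p = 0.254) and was not called. Its share was 0.543% to 1.41% in SCC and 0.774% to 0.981% in skin, and KO SCC replicate 4 was the highest library. In all, 4 of the 5 star-guide differences were called lower, where 22.6% of the 177 hairpins were. The median change was -1.22 for the 5 miR-30 hairpins and -0.19 for all 177.

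**Figure D3:**
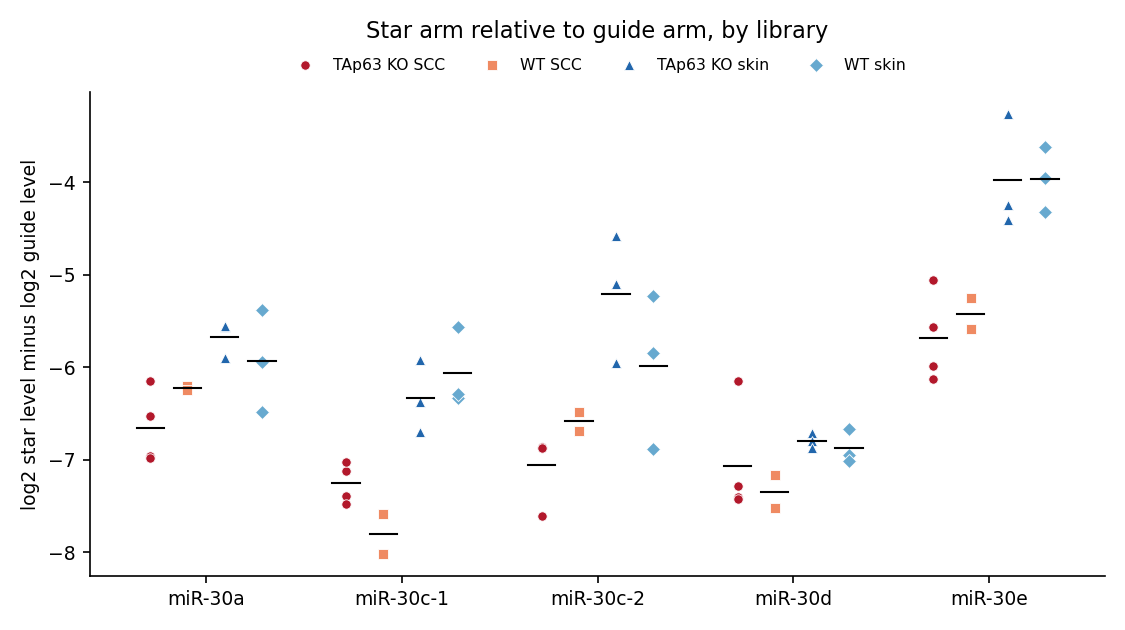
Log2 level of the star arm minus that of the guide arm (vertical axis) for the 5 miR-30 hairpins in each of the 12 libraries, as points by group with a bar at the group mean. For miR-30e and miR-30c-1 all SCC points lie below all skin points, and for miR-30d the groups overlap.

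**Figure D4:**
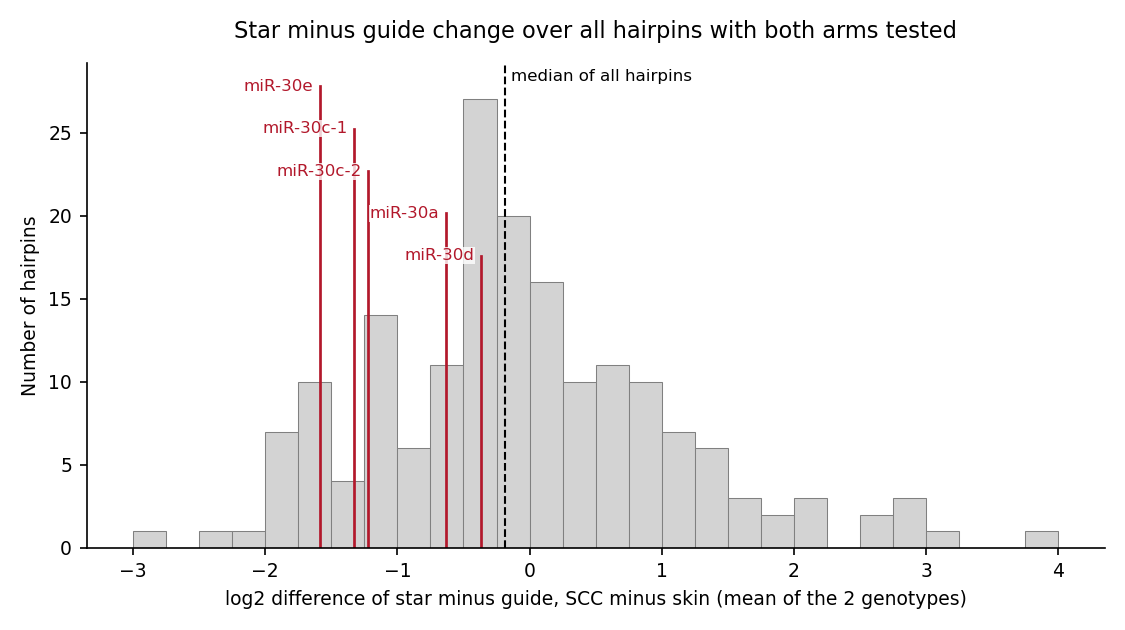
Number of hairpins (vertical axis) by the change of star minus guide between SCC and skin (horizontal axis, log2, mean of the genotypes) for the 177 hairpins with both arms tested, with the 5 miR-30 hairpins marked by lines. The miR-30 values run from -1.58 to -0.37, all below the median of -0.19 (dashed line).

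By genotype, KO mice had 3 of the 5 star-guide differences called lower in SCC, beside 11.9% of hairpins. They were miR-30c-2 (-1.84 ± 0.40, adjusted p = 0.00237), miR-30e (-1.71 ± 0.34, 0.00124) and miR-30a (-0.98 ± 0.31, 0.0230). The miR-30a call ended without the variance trend and robust variances (0.0507). It also ended without KO SCC replicate 1 or 2 or KO skin replicate 1 or 2 (0.0561 to 0.0845). miR-30c-1 missed the threshold in KO mice (-0.92 ± 0.34, adjusted p = 0.0548) and passed it with a pseudocount of 10 (0.0414) and without KO skin replicate 3 or WT skin replicate 3 (0.0438 and 0.0378). WT mice had 2 of 5 called lower, beside 19.2% of hairpins: miR-30c-1 (-1.74 ± 0.41, adjusted p = 0.00404) and miR-30e (-1.46 ± 0.40, 0.00983). Each WT call ended without 1 of the WT tumours, for miR-30c-1 without replicate 1 (0.0548) and for miR-30e without replicate 2 (0.0752).

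The make-up of the family's guide pool shifted with the opposite changes of miR-30a-5p and miR-30e-5p. miR-30a-5p made up 41.7% ± 5.35 of the summed linear level of the 5 guide arms in SCC (SD, n = 6, 33.0% to 48.7%), against 66.0% ± 3.89 in skin (n = 6, 61.8% to 71.6%). miR-30e-5p made up 22.4% ± 3.56 in SCC and 8.60% ± 2.10 in skin. The shares of miR-30d-5p were 23.2% ± 2.15 in SCC and 18.7% ± 1.98 in skin, those of miR-30c-5p 8.08% ± 1.40 and 4.32% ± 0.54, and those of miR-30b-5p 4.57% ± 0.61 and 2.39% ± 0.19. Shares of a sum move together by construction, so these are given with no test. The 5 guide arms together held 3.03% ± 0.52 of the linear sum of all rows in SCC, against 4.57% ± 0.46 in skin. The 5 star arms together held 0.0370% ± 0.0082 in SCC, against 0.0946% ± 0.0208 in skin.

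Within the pairs of near-identical arms, the miR-30a copy was lower relative to the miR-30e copy in SCC than in skin, for guide and star alike. The linear level of miR-30a-5p was 1.85, 2.00, 1.18 and 1.66 times that of miR-30e-5p in KO SCC and 2.04 and 2.82 times in WT SCC, against 11.6, 5.33 and 6.34 times in KO skin and 10.6, 7.86 and 7.25 times in WT skin. Every SCC ratio was below every skin ratio. Against miR-30d-5p, miR-30a-5p stood at 1.36 to 2.18 times in SCC and 2.98 to 4.54 times in skin, also without overlap. That pair was not tested. Since miR-30a-5p by itself separated fully between the tissues and miR-30d-5p was not called, this ratio largely repeats the miR-30a-5p result. For miR-30a-5p against miR-30e-5p, the averaged change of the log2 difference in SCC was -1.99 (exact permutation test, two-sided, p = 0.00286). That is the smallest p that 350 rearrangements within genotypes can give. Each arm had already separated fully between the tissues, in opposite directions, so a full separation of their ratio was fixed before the test. Its p-value is no separate support. The star arms miR-30a-3p and miR-30e-3p stood at ratios of 0.941, 1.11, 0.604 and 0.783 in KO SCC and 1.06 and 1.80 in WT SCC, against 2.35, 2.15 and 2.25 in KO skin and 2.67, 1.75 and 2.14 in WT skin. WT SCC replicate 2 slightly exceeded the lowest skin library, and the averaged log2 difference was -1.03 (exact permutation p = 0.00571). These tests were added after the values had been seen, and 6 were run (3 pairs, each for the tumour effect and for its dependence on genotype). Adjusted over the 6, these p-values were 0.010 and 0.0114. The adjustment does not cover the choice of the pairs after the values had been seen.

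The pair miR-30c-2-3p and miR-30c-1-3p behaved otherwise. The log2 difference miR-30c-2-3p minus miR-30c-1-3p was 0.52, 0.26, -0.14 and 0.15 in KO SCC and 1.53 and 0.89 in WT SCC, and it was 1.34, 1.28 and 0.75 in KO skin and 0.48, -0.59 and 0.34 in WT skin. In SCC the KO libraries were all below the WT libraries, and in skin the KO libraries were all above them. How often other pairs of miRNAs separate by genotype in this way was not counted. The tumour effect in KO mice minus that in WT mice was -2.06 (exact permutation of genotype within tissue, two-sided, p = 0.00333). That is the smallest p that 300 rearrangements can give, and it was 0.010 adjusted over the 6 tests. The pattern was seen before the test, so this p-value is no independent support, and the adjustment does not cover the choice. Rearranging genotype within tissue assumes no genotype effect in either tissue, so it does not test the interaction alone. With limma, the interaction was called for neither arm (miR-30c-2-3p adjusted p = 0.716, miR-30c-1-3p 0.674). Averaged over genotypes, the change of miR-30c-2-3p minus miR-30c-1-3p with SCC was 0.11 (exact permutation p = 0.820). The same dependence on genotype was -0.34 for miR-30a-5p against miR-30e-5p (exact permutation p = 0.507) and -0.78 for miR-30a-3p against miR-30e-3p (exact permutation p = 0.107, and 0.0267 without WT skin replicate 1). The miR-30c star arms lie at the low end of the family's levels, and the tumours of the WT group number 2.

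**Figure D5:**
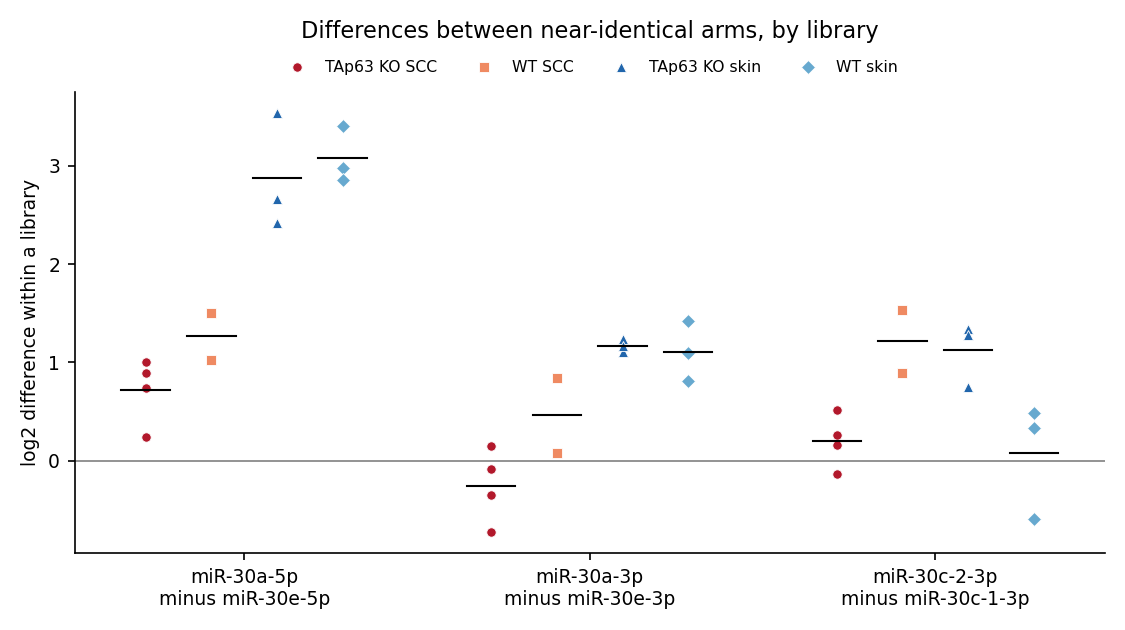
Log2 difference between the members of each pair of near-identical arms (vertical axis) in each of the 12 libraries, as points by group with a bar at the group mean. For miR-30a-5p minus miR-30e-5p every SCC point lies below every skin point, and for miR-30c-2-3p minus miR-30c-1-3p the genotypes separate in opposite directions in SCC and in skin.

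The effect of TAp63 loss was tested on each member in both tissues. In SCC, 0 of 10 members were called between KO and WT, beside 0.184% of tested miRNAs, and 0 of 10 had an unadjusted p under 0.05, beside 46 of 544. The widest differences were -0.73 for miR-30a-3p (95% interval -1.48 to 0.02, adjusted p = 0.538) and 0.71 for miR-30c-1-3p (-0.12 to 1.55, adjusted p = 0.589). In skin, 0 of 10 members and 0 of 544 tested miRNAs were called with limma, and 0 of 10 and 31 of 544 had an unadjusted p under 0.05. miR-30c-2-3p showed the widest difference in skin, 8.33 ± 0.67 in KO skin and 7.54 ± 0.83 in WT skin (SD, n = 3 each), a log2 difference of 0.79 (95% interval -0.21 to 1.80, limma, adjusted p = 1). In SCC it was 6.82 ± 0.37 in KO (n = 4) and 7.13 ± 0.25 in WT (n = 2), a difference of -0.30 (-1.37 to 0.76, adjusted p = 0.855). These intervals include changes of more than 1 log2 unit, so they do not show that the genotypes are alike.

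No member's tumour effect was called as different between the genotypes. The interaction called 0 of 10 members and 0 of 544 miRNAs with limma, and at an unadjusted p under 0.05 it gave 0 of 10 and 41 of 544. Its widest values were -1.09 for miR-30c-2-3p (95% interval -2.56 to 0.37, adjusted p = 0.716), 0.97 for miR-30c-1-3p (-0.18 to 2.11, adjusted p = 0.674) and -0.95 for miR-30a-3p (-1.98 to 0.08, adjusted p = 0.613). For star minus guide, the interaction called 0 of 5 miR-30 hairpins, beside 1.69% of 177. KO against WT called 0 of 5 in skin, beside 3.95%, and 0 of 5 in SCC, where 0 of 177 were called and 16 of 177 had an unadjusted p under 0.05.

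miR-30b-3p, the arm outside the member list, had log2 levels of 5.06 to 6.24 in the 6 SCC libraries and 6.65 to 7.79 in the 6 skin libraries. It was lower in SCC by 1.26 ± 0.26 (SE, adjusted p = 0.00287), and its difference from miR-30b-5p fell by 1.55 ± 0.29 (SE, adjusted p = 0.00028). The 3 miRNAs outside the family whose profile over the 12 libraries lay nearest to that of miR-30c-2-3p were miR-382-5p, miR-653-5p and miR-329-5p, at root mean square differences of 0.39, 0.41 and 0.42 between log2 values centred on each miRNA's mean, out of 533 compared. miR-653-5p was at the lower limit in all 6 SCC libraries, so its level in SCC was not measured. For miR-30a-5p they were miR-152-3p (0.29), miR-203-5p (0.31) and miR-497-5p (0.31).

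Markers of other cells differed between SCC and skin beside the members. Of the 5 striated muscle miRNAs, 4 were called lower in SCC, and their summed log2 level was 12.21 to 13.97 in KO SCC and 12.53 to 14.94 in WT SCC, against 16.02 to 16.46 in KO skin and 16.16 to 16.28 in WT skin. Both melanocyte miRNAs were lower (6.47 to 7.59 in KO SCC and 8.45 to 10.7 in WT SCC, against 11.2 to 12.7 in KO skin and 12.2 to 12.6 in WT skin). The 8 keratinocyte and epithelial miRNAs summed to 18.3 to 19.3 in SCC and 18.3 to 18.8 in skin, with 1 called higher and 2 lower. Of the other lists, 2 of 4 red cell, 2 of 4 tested leukocyte and 1 of 2 endothelial miRNAs were higher, 2 of 4 fibroblast and stroma miRNAs were lower, and 0 of 2 smooth muscle miRNAs were called by limma. The part of these cell types in the miR-30 differences was not tested.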

How the data were processed

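The authors deposited 1 table of log2 values for 1251 miRNA rows in 12 libraries (KO SCC 4, WT SCC 2, KO skin 3, WT skin 3). Per the labels' protocols, the miRVana kit gave the total RNA. Per the submitters' processing notes, mm10 was the genome. Which aligner, counter and miRBase release served is not given in the sources used here. The values show quantile normalization and a floor, a linear 10: library sums on the linear scale run from 6065014 to 6065621, and 647 rows sit at the floor throughout. Read depth is unknown, so no counting intervals are given. Quantile normalization gives equal ranks nearly equal values and can compress changes common to many miRNAs.

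Linear models (limma 3.58.1, R 4.3.3) took the log2 values of 544 miRNAs that exceeded the floor in 2 or more libraries. Each of the 4 groups had a mean, and variances were robust and followed a trend with level (residual df 8, median prior df 3.2). The 6 contrasts were SCC minus skin averaged over genotypes, SCC minus skin in each genotype, KO minus WT in each tissue, and the interaction. Benjamini-Hochberg adjustment ran over all tested rows of a contrast. The difference of the arms was fitted with the same groups and contrasts over 177 hairpins: for miR-30 the 3p minus the 5p arm, for others the arm with the lower mean minus the other. In this fit the variance trend followed the mean level of the first arm of each difference. The median prior df given above belongs to the fit of levels. The fit of levels was tested on simulated data. For the arms, a known shift added to the measured 3p values was recovered, and no fit was simulated. Pair differences were tested by exact permutation, added after the values had been seen. Named miRNAs were all members, miR-30b-3p, the 3 nearest profiles to miR-30c-2-3p and to miR-30a-5p, and the marker lists. Members, lists and tests were chosen with earlier results of these data known. The labels do not say whether samples are separate mice, so p-values cover the spread between these samples, part of which may be technical. Replicates were numbered in accession order. Alternatives were the filter, a pseudocount of 10, median-ratio scaling and plain limma, which has neither variance trend nor robust variances. The groups of a contrast were also fitted alone, and each library was left out in turn. Coordinates and sequences come from RefSeq and GENCODE on GRCm38.p6.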

Additional observations from a re-analysis of the deposited data

Results flagged for a closer look

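Among the 4 KO SCC libraries, 15 sets of member values were examined for a library far from the others, and 3 sets had one; chance gives about 1 in 20. miR-30b-5p was 12.9 in KO SCC replicate 3, below the 13.13 to 13.17 of the other 3. The log2 difference of star minus guide for miR-30c-2 was -7.61 in KO SCC replicate 3, below the -6.87 to -6.86 of the other 3. For miR-30d it was -6.14 in KO SCC replicate 4, above the -7.43 to -7.28 of the other 3.

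The difference miR-30c-2-3p minus miR-30c-1-3p changed with SCC in opposite directions in the genotypes: the tumour effect in KO mice minus that in WT mice was -2.06 on the log2 scale (exact permutation p = 0.00333). Leaving out each library in turn gave -2.38 to -1.73. The pattern was seen before it was tested, so the permutation p-value is no independent support.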

How the results depend on the processing

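The calls of miR-30a-5p, miR-30a-3p, miR-30e-5p, miR-30e-3p and miR-30c-1-3p, and of star minus guide for miR-30c-1, miR-30c-2 and miR-30e, averaged over genotypes, held under every alternative run. No paired analysis was possible because the numbers in the labels do not pair libraries across groups. The contrast's groups alone could not be run for the averaged effect and the interaction, which use all 4 groups. Median-ratio scaling moved the median averaged difference of all miRNAs to 0.16 (0.04 as deposited) and turned KO minus WT skin of miR-30b-5p to 0.013 and of miR-30d-3p to 0.037. Counts of calls moved as follows, with the count as reported in parentheses. With both arms above the floor in all 12 libraries, the averaged effect had 42 hairpins (74), the WT tumour effect 32 (53) and the interaction 1 (3). Plain limma gave 0 hairpins for the interaction, 4 for KO minus WT skin (7) and 2 miRNAs for KO minus WT SCC (1). The groups alone gave 0 hairpins for KO minus WT skin, 0 miRNAs for KO minus WT SCC and 62 for the WT tumour effect (99). A floor filter of 6 libraries gave 0 miRNAs for KO minus WT SCC. Leaving out 1 library gave 0 to 7 hairpins for the interaction (7 without WT skin replicate 3), 0 to 14 for KO minus WT skin (14 without WT skin replicate 3), 0 to 1 for KO minus WT SCC (1 without WT SCC replicate 2) and 23 to 54 for the WT tumour effect (23 without WT SCC replicate 1). It gave 0 to 11 miRNAs for the interaction and 1 to 13 for KO minus WT SCC (11 and 13 without WT SCC replicate 2), and 0 to 2 for KO minus WT skin (2 without KO skin replicate 3). For the WT tumour effect it gave 32 to 118 miRNAs, with 32 without WT SCC replicate 1, and 65 and 61 without WT skin replicates 1 and 2. The cause was not tested. Uncalled differences that changed sign when 1 library was left out had these ranges. For KO minus WT in SCC they were -0.68 to 0.082 for miR-30a-5p, -0.30 to 0.78 for miR-30b-5p, -0.11 to 0.45 for miR-30c-5p, -0.024 to 0.46 for miR-30d star minus guide and -0.26 to 0.51 for miR-30d-5p. In the same contrast they were -0.19 to 0.17 for miR-30e-3p. For KO minus WT in skin they were -0.017 to 0.54 for miR-30a star minus guide, -0.042 to 0.36 for miR-30a-3p, -0.18 to 0.065 for miR-30a-5p, -0.063 to 0.032 for miR-30b-5p and -0.43 to 0.0027 for miR-30c-1-3p. In the same contrast they were -0.010 to 0.046 for miR-30c-5p, -0.14 to 0.087 for miR-30d-3p, -0.18 to 0.0026 for miR-30d-5p, -0.36 to 0.21 for miR-30e star minus guide and -0.0050 to 0.30 for miR-30e-3p. For the interaction they were -0.64 to 0.13 for miR-30a-5p, -0.26 to 0.81 for miR-30b-5p, -0.13 to 0.43 for miR-30c-5p, -0.11 to 0.38 for miR-30d star minus guide and -0.17 to 0.60 for miR-30d-5p. In the same contrast they were -0.47 to 0.10 for miR-30e star minus guide, -0.34 to 0.015 for miR-30e-3p and -0.11 to 0.23 for miR-30e-5p. For the WT tumour effect they were -0.38 to 0.69 for miR-30b-5p and -0.092 to 0.47 for miR-30c-5p. For the averaged effect it was -0.060 to 0.27 for miR-30c-2-3p minus miR-30c-1-3p.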
